A study of Mus musculus with 2 samples.

Results

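The nuclear-encoded subunits of oxidative phosphorylation were followed in mouse fetal thymic stromal cells that were kept either in reaggregation thymus organ culture (RTOC) or in flat dish culture (2D culture). Members were chosen by name, as the non-control probes of the array whose gene name belongs to the Nduf, Sdh, Uqcr, Cox4 to Cox8 or Atp5 series or is Cyc1 or Cycs. This gave 112 of 41174 probes, which stand for 82 of 19504 named genes. By the complex in their names, 35 genes belong to complex I, 4 to complex II, 8 to complex III, 18 to complex IV and 16 to complex V, and Cycs encodes cytochrome c. The names also caught Cox4nb, now called Emc8, and Atp5s, now called Dmac2l, which are not structural subunits; they were kept and are pointed out where they count.

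The cells came from thymus lobes of C57BL/6 fetuses. The lobes were exposed to 1.35 mM deoxyguanosine, an agent that removes developing lymphocytes, in fetal thymus organ culture and were then dispersed. Dispersed cells were cultured for 72 h, either spread on a dish (2D culture) or set as a dense suspension on a membrane (RTOC). On a first array both cultures came from E14.5 fetuses after 8 days of organ culture, and on a second array from E15.5 fetuses after 9 days. Cy3 marked 2D culture and Cy5 marked RTOC each time, so dye and culture cannot be told apart, nor can stage, days of organ culture and array. The labels do not say how many fetuses were pooled for an array. Each array gave 1 ratio per probe, and the 2 ratios served as replicates of the comparison between cultures.

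Oxidative phosphorylation is the last stage of respiration in the inner mitochondrial membrane. Complex I takes electrons from NADH and complex II takes them from succinate. Complex III passes them on to cytochrome c, and complex IV hands them to oxygen. Complexes I, III and IV pump protons, and complex V, the ATP synthase, lets the protons flow back to make ATP. Most subunits are encoded in the nucleus, while a small catalytic set is encoded in mitochondrial DNA. Probes of that mitochondrial set were looked for under 26 names, none was found, and those genes were not analysed here.

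Signals below are processed intensities after quantile normalization of the 4 channels, on the log2 scale, and a log2 ratio is the signal of RTOC minus that of 2D culture on the same array. Signals of different probes are not comparable with each other. A probe counted as measured in a culture where it was well above background, which held for 53.1% and 53.5% of all probes in 2D culture and for 56.4% and 61.0% in RTOC (E14.5 array first). Of the 82 members, 79 were measured in both cultures on both arrays. Cox8b was measured in RTOC alone, and Cox4i2 and Cox8c were measured in no culture and were not tested. No spot of a member was saturated or marked as an outlier.

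In RTOC the members lay on the whole slightly above 2D culture. The median log2 ratio was 0.50 in complex I, -0.10 in complex II, 0.17 in complex III, 0.13 in complex IV and 0.44 in complex V, and differences between complexes were not tested. The 80 members tested had a median log2 ratio of 0.38, against -0.01 over all 23685 probes tested. By limma at an adjusted p under 0.05, 9 members rose and 0 fell in RTOC, while 23 were higher and 3 lower at an unadjusted p under 0.05, which 22.3% and 20.9% of all probes passed in these directions. The members called higher were 11.25% of those tested, and 15.3% of all probes tested were called higher and 13.6% lower. The 9 include Cox8b, which entered the test only through RTOC. The share of members called higher was thus no larger than that of all probes, but this moved with the settings. It was larger with normexp and median centring, where 25.0% of members and 9.37% of all probes were called higher. The shares were 23.75% and 21.4% with median centring of the processed signals and 17.7% and 14.2% where both channels had to be measured. Members lay below all probes with processed signals as deposited (10% and 16.7%), trend and robust eBayes (5% and 10.5%) and no replicate block (3.75% and 9.37%). With normexp and loess the shares were 8.75% and 8.48%. By direction on each array, 44 members (55.0%) were higher in RTOC on both arrays and 13 (16.25%) were lower on both, against 39.6% and 40.4% of all probes tested. The members were bright, with their median level at percentile 95.7 of all probes tested, and probes of like brightness were not compared. These counts are descriptions, since genes of a complex are not independent of each other. In bulk RNA, fewer cells of a type and less RNA per cell cannot be told apart.

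**Figure D1:**
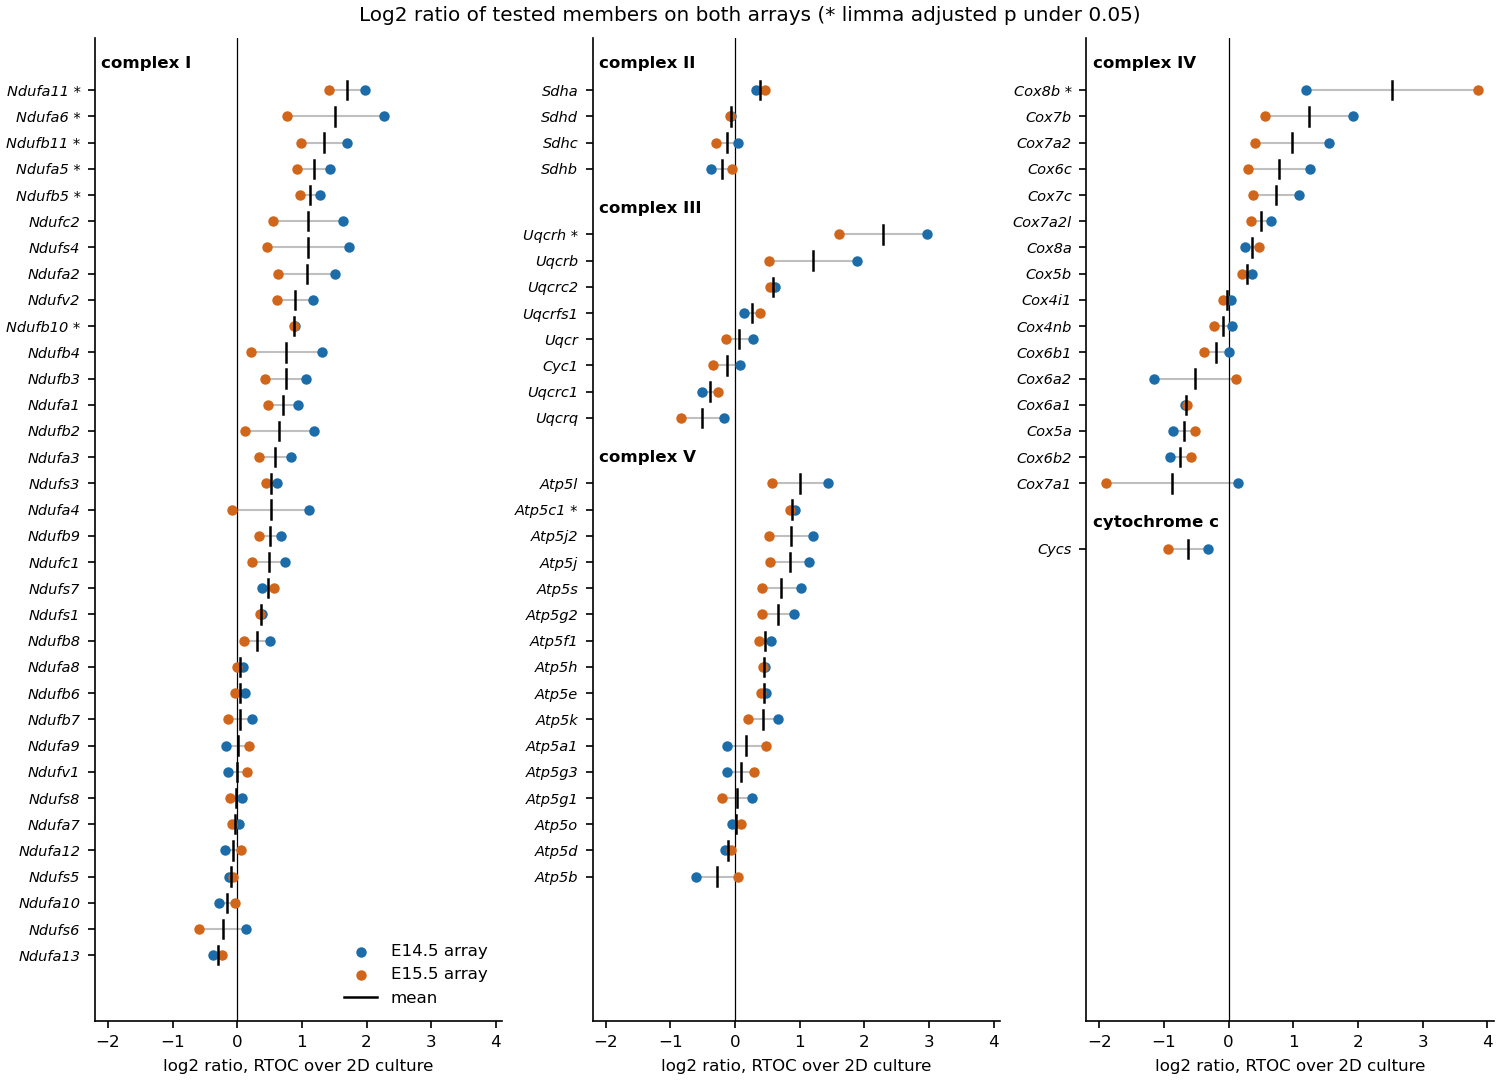
Log2 ratio of RTOC over 2D culture (horizontal axis) for 79 of the 80 members tested, in rows grouped by complex and sorted by mean. Blue and orange points are the E14.5 and the E15.5 array, black bars their mean, and a star marks an adjusted p under 0.05. Starred genes are Ndufa11, Ndufa6, Ndufb11, Ndufa5, Ndufb5 and Ndufb10 in complex I, Uqcrh in complex III, Cox8b in complex IV and Atp5c1 in complex V, and all 9 lie to the right of 0 on both arrays.

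A fold rule in place of the test picked a similar set. A ratio of at least 1.5-fold on both arrays was reached by 11 members in the direction of RTOC, and 18.7% of all probes reached it. The 11 were the 9 called by limma together with Ndufa2 and Ndufv2. Cox8b is among them though it was measured in RTOC alone, and its ratio was 1.44-fold after normexp correction, loess and Aquantile. In the direction of 2D culture 2 members reached it, Cox6a1 and Cox6b2, against 17.8% of all probes.

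Genes of the respiratory chain are known to share binding sites for Nrf1 and for ETS factors such as GABP near their starts, and many lack a TATA box. Promoters were read from RefSeq sequences of GRCm38.p6, from 250 bases before to 50 bases after each start, and were found for 66 of the 82 members. The Nrf1 core CGCATGC, on either strand, was in 12 of them (18.2%) and in 4.01% of the promoters of all 27025 genes in that table. The ETS core CCGGAAG, on either strand, was in 16 (24.2%) against 9.93%, and TATAAA, on either strand, was in 6 (9.09%) against 15.7%. All 9 members called higher had a promoter in the table, and 2 of them held the Nrf1 core (Ndufa11 and Ndufa6), 1 the ETS core and 1 the TATA letters. Matches of the Nrf1 core on the 2 strands overlap each other where its letters form a palindrome, and were counted once for a promoter. A match is a run of letters and not a shown binding site.

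Printed here are 4 promoters, those of Uqcrh and Ndufa11, which had the highest ratios of the members measured in both cultures, of Cox6a1, a general subunit with a ratio below 0, and of Cox8b, the muscle isoform called higher. They are the 250 bases before the start, 5′ to 3′ along the gene, in lower case with matches to the Nrf1 or ETS core in capitals. The windows lie in GRCm38.p6 at chr4:116075071-116075320 on the minus strand (Uqcrh), chr17:56717512-56717761 on the plus strand (Ndufa11), chr5:115348959-115349208 on the minus strand (Cox6a1) and chr7:140900447-140900696 on the minus strand (Cox8b).
Uqcrh: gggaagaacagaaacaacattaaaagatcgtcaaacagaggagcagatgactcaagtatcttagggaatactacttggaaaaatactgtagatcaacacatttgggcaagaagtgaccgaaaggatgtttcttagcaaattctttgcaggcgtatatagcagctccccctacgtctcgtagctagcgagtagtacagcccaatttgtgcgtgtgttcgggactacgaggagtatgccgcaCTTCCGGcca
Ndufa11: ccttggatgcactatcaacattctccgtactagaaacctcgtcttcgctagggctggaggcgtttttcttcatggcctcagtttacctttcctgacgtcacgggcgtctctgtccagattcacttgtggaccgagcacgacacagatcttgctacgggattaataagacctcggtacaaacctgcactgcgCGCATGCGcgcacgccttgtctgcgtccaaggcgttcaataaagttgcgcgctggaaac
Cox6a1: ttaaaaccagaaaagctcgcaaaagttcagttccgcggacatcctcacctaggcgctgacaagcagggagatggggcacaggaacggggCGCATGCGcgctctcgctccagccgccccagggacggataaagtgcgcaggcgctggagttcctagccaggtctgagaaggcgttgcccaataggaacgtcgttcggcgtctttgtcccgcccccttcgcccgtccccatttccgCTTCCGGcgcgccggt
Cox8b: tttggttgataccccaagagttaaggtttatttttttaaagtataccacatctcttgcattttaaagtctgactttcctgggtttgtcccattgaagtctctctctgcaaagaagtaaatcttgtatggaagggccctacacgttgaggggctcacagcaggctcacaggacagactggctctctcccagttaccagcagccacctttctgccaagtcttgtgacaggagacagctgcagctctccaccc
The promoter of Uqcrh held the ETS core 10 bases before the start, and that of Ndufa11 the Nrf1 core 59 bases before it. The promoter of Cox6a1 held both, the Nrf1 core 161 and the ETS core 16 bases before the start, and that of Cox8b held neither. Cox6a1 was not called, and whether the motifs go with the ratios was not tested.

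Complex I, the NADH dehydrogenase and the largest of the complexes, held 6 of the 9 members that rose in RTOC, which is 17.1% of its genes against 15.3% of all probes. All of its 35 genes were tested, with a median log2 ratio of 0.50, and 0 of them fell. The 6 that rose were all accessory subunits, which surround the catalytic core and are needed for assembly and stability: 6 of 28 accessory subunits rose, with a median of 0.55, and 0 of the 7 core subunits, with a median of 0.37. Whether the groups of subunits differ was not tested.

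Ndufa11, an accessory subunit at the membrane arm, had log2 signals of 9.47 and 9.83 in 2D culture and of 11.44 and 11.26 in RTOC, with the E14.5 array first here and below. Both RTOC signals lay above both 2D signals. Here and below, how many of all probes had cultures that did not overlap was not counted. Its mean log2 ratio was 1.70 ± 0.39 (SD, n = 2 arrays; SE 0.28, limma adjusted p = 0.0105), which is 3.24-fold. A second probe of the gene gave 1.76.

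Ndufa6, an accessory subunit of the peripheral arm, had log2 signals of 12.21 and 12.83 in 2D culture and of 14.48 and 13.60 in RTOC. The cultures did not overlap, but the ratio was far larger on the E14.5 array (2.27) than on the E15.5 array (0.77). Its mean of 1.52 ± 1.06 (SD, n = 2 arrays; SE 0.41, limma adjusted p = 0.0425) passed the threshold with that spread.

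Ndufb11, Ndufb5 and Ndufb10 are accessory subunits of the membrane arm, the part that pumps protons. Ndufb11 had log2 signals of 14.73 and 14.94 in 2D culture and of 16.43 and 15.92 in RTOC, a log2 ratio of 1.34 ± 0.51 (SD, n = 2 arrays; SE 0.29, limma adjusted p = 0.0246). Ndufb5 had 11.67 and 11.43 in 2D culture and 12.96 and 12.40 in RTOC, a log2 ratio of 1.13 ± 0.23 (SD, n = 2 arrays; SE 0.26, limma adjusted p = 0.0283). Ndufb10 had 14.65 and 14.82 in 2D culture and 15.54 and 15.69 in RTOC, a log2 ratio of 0.88 ± 0.01 (SD, n = 2 arrays; SE 0.25, limma adjusted p = 0.0496). For each of these genes the lower RTOC signal lay above the higher 2D signal, and Ndufb10 sat at the edge of the threshold. Ndufa5, an accessory subunit of the peripheral arm, had 13.65 and 13.53 in 2D culture and 15.09 and 14.45 in RTOC, a log2 ratio of 1.18 ± 0.37 (SD, n = 2 arrays; SE 0.27, limma adjusted p = 0.0288).

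**Figure D2:**
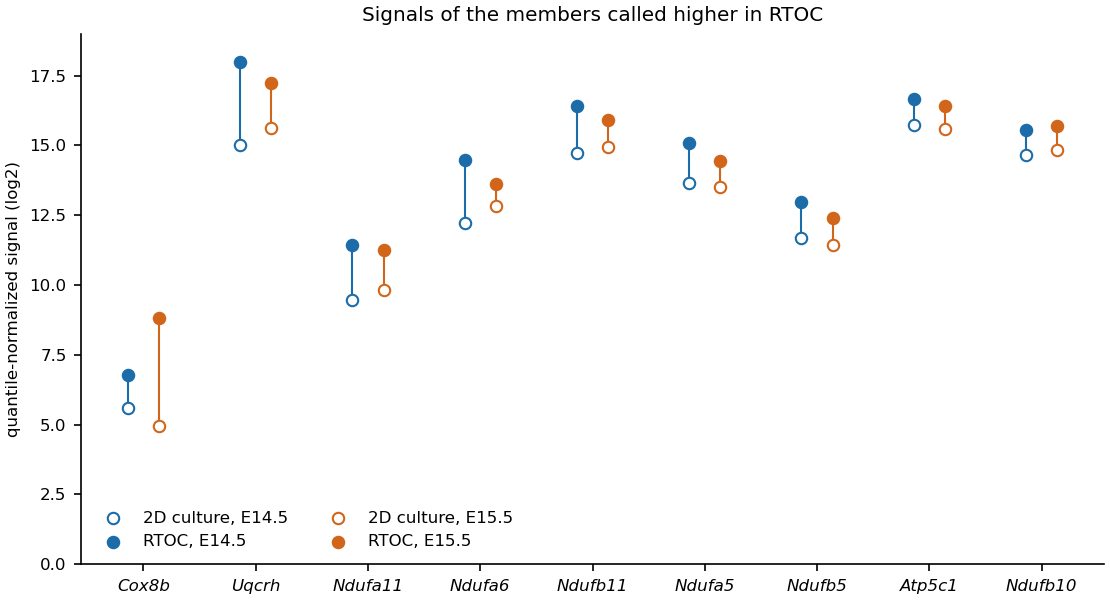
Quantile-normalized log2 signals (vertical axis) of the 9 members called higher in RTOC, with open circles for 2D culture and filled circles for RTOC, blue for the E14.5 and orange for the E15.5 array, and a line joining the cultures of an array. Every filled circle lies above its open circle, and the shortest line is that of Ndufa6 on the E15.5 array (12.83 to 13.60). The open circles of Cox8b are signals not well above background, so its lines have no exact length. Heights compare cultures within a gene, not genes with each other.

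The nuclear core subunits of complex I carry the flavin and the iron-sulfur clusters that lead electrons from NADH to ubiquinone. Ndufv2, an iron-sulfur subunit beside the NADH site, had the highest ratio of them, 1.17 and 0.62 on the E14.5 and the E15.5 array, with a mean of 0.90 (limma adjusted p = 0.0613). Ndufs3, Ndufs7 and Ndufs1 had means of 0.53, 0.48 and 0.37. Ndufv1, which binds NADH and flavin, and Ndufs8 were near 0, with means of 0.00 and -0.02. None of these passed the test, and subunits that sit side by side in the peripheral arm thus ranged from -0.02 to 0.90.

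At the low end of complex I lay Ndufa13, also known as GRIM-19, with log2 signals of 16.22 and 16.10 in 2D culture and 15.85 and 15.86 in RTOC. Its mean log2 ratio was -0.30 (limma adjusted p = 0.404), which turned to 0.28 with normexp and median centring. Ndufs6, an accessory subunit that binds zinc, had ratios of 0.14 and -0.59. Ndufa4, which carries a complex I name and was later assigned to complex IV, had log2 signals of 14.61 and 14.90 in 2D culture and of 15.72 and 14.81 in RTOC. Its ratio was 1.12 at E14.5 and -0.09 at E15.5, with a mean of 0.52 ± 0.85 (SD, n = 2 arrays; SE 0.36, limma adjusted p = 0.319).

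Complex II, the succinate dehydrogenase, is shared with the Krebs cycle and pumps no protons, and its 4 genes stayed within a narrow range. None of them passed the test, and the median log2 ratio was -0.10, which turned to 0.08 with normexp and median centring and to 0.02 with median centring of the processed signals. Sdha, the flavoprotein, had log2 signals of 11.49 and 11.80 in 2D culture and of 11.81 and 12.27 in RTOC, a mean log2 ratio of 0.39 (SE 0.25, limma adjusted p = 0.284). Its second probe gave -0.41, the largest gap between probes of a tested member (0.80), so the gene has no settled sign. Sdhb, the iron-sulfur subunit, had a mean of -0.21, and the membrane anchors Sdhc and Sdhd had -0.12 and -0.07, with limma adjusted p of 0.573, 0.743 and 0.863.

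Complex III held the member with the largest ratio of those measured in both cultures. Uqcrh, the hinge protein that assists the contact with cytochrome c, had log2 signals of 15.003 and 15.62 in 2D culture and of 17.98 and 17.23 in RTOC. The RTOC signals lay above both 2D signals by a wide margin on both arrays, with ratios of 2.98 and 1.61. Its mean log2 ratio was 2.29 ± 0.96 (SD, n = 2 arrays; SE 0.38, limma adjusted p = 0.0115), which is 4.91-fold, and a second probe gave 1.85.

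Uqcrb, a small subunit at the ubiquinone site, had ratios of 1.88 and 0.53 and did not pass the test (mean 1.21, SE 0.38, limma adjusted p = 0.0656). The core proteins, which fold like peptidases on the matrix side, lay on opposite sides of 0, with a mean of 0.58 for Uqcrc2 (limma adjusted p = 0.135) and of -0.39 for Uqcrc1 (limma adjusted p = 0.296). Uqcrfs1, the Rieske iron-sulfur protein, had 0.27. Uqcrq had the lowest mean of the complex, -0.51 (SE 0.29, limma adjusted p = 0.231). Over the 8 genes the median was 0.17, with 1 called higher (12.5%, against 15.3% of all probes) and 0 lower.

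Cytochrome c carries electrons from complex III to complex IV, and its gene Cycs had a mean ratio below 0 but was not called. Cycs had log2 signals of 15.36 and 15.02 in 2D culture and of 15.04 and 14.08 in RTOC, with a mean ratio of -0.63 ± 0.44 on the log2 scale (SD, n = 2 arrays; SE 0.28, limma adjusted p = 0.148). Its other probes gave -0.11 and -0.14, and each was above 0 on the E14.5 array and below 0 on the E15.5 array. Cyc1, the haem subunit of complex III that hands electrons to cytochrome c, had ratios of 0.08 and -0.34 and a mean of -0.13 (limma adjusted p = 0.742).

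Complex IV, the cytochrome c oxidase, was spread to both sides of 0. Of its 18 genes, Cox4nb among them, 16 were tested, with a median of 0.13, which turned to -0.02 where both channels had to be measured on both arrays. As many members had a mean above 0 as below it, 8 each, and 1 was called higher (6.25%, against 15.3% of all probes) and 0 lower. Its nuclear subunits include pairs of isoforms, a general form found in most tissues and a form restricted to muscle, lung or testis.

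Among the general forms Cox7b and Cox7a2 had the highest ratios. Cox7b had log2 signals of 13.16 and 13.43 in 2D culture and of 15.08 and 13.996 in RTOC, with a mean ratio of 1.24 ± 0.96 on the log2 scale (SD, n = 2 arrays; SE 0.38, limma adjusted p = 0.0608). Cox7a2 had 14.11 and 14.43 in 2D culture and 15.66 and 14.83 in RTOC, a mean of 0.98 ± 0.82 (SD, n = 2 arrays; SE 0.35, limma adjusted p = 0.0893). For both genes the RTOC signals lay above both 2D signals, and neither passed the threshold.

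Cox5a and Cox6a1 had the lowest means of the general forms. Cox6a1 had log2 signals of 17.10 and 17.14 in 2D culture and of 16.42 and 16.49 in RTOC, with nearly equal ratios on both arrays and a mean of -0.66 ± 0.03 (SD, n = 2 arrays; SE 0.25, limma adjusted p = 0.101), which turned to 0.18 with normexp and median centring. Cox5a, a subunit on the matrix side, had 16.02 and 15.88 in 2D culture and 15.17 and 15.36 in RTOC, a mean of -0.69 (SE 0.26, limma adjusted p = 0.101). For Cox6a1 and Cox5a the cultures did not overlap either, with the RTOC signals below both 2D signals. Cox4i1, often used as a mitochondrial reference, was level, at -0.02. Cox8a had 0.36 and Cox6b1 had -0.19.

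The restricted isoforms went in different directions, and 2 of them had ratios of opposite sign on the arrays. Cox8b, the muscle form of subunit VIII, did not reach the background threshold in 2D culture, where its log2 signals were 5.60 and 4.95, and was measured in RTOC on both, at 6.79 and 8.80. Its fitted log2 ratio was 2.52 ± 1.88 (SD, n = 2 arrays; SE 0.62, limma adjusted p = 0.0341). The 2D signals were not well above background, so the size of this ratio is uncertain. Taken per channel after normexp correction, loess and Aquantile, the ratio was 1.44-fold, and the gene was not called under that setting. Both values carry any dye bias, since no dyes were swapped. Cox8b entered the test only through RTOC, where it is high.

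Cox7a1, the heart and skeletal muscle form of subunit VIIa, had log2 signals of 7.79 and 9.66 in 2D culture and of 7.93 and 7.76 in RTOC. The signal of 2D culture on the E15.5 array stood above the others, and the ratios were 0.14 and -1.90 (mean -0.88 ± 1.44, SD, n = 2 arrays; limma adjusted p = 0.234). Cox6a2, the muscle form of subunit VIa, had 7.54 and 6.62 in 2D culture and 6.38 and 6.74 in RTOC, with ratios of -1.16 and 0.12 (limma adjusted p = 0.332). Cox6b2, the testis form of subunit VIb, was lower in RTOC on both arrays, with a mean of -0.75 (SE 0.26, limma adjusted p = 0.0821). Its RTOC signals lay below both 2D signals. Cox4i2, the lung form of subunit IV, and Cox8c, a testis form of subunit VIII, were not well above background in any channel.

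Markers of muscle were looked at beside Cox8b. Of the 8 genes of a skeletal and heart muscle list, 3 were tested and all 3 were called lower in RTOC: Actc1, Acta1 and Tnnt2, with mean log2 ratios of -2.78, -3.39 and -2.25. Ckm, Mb, Myh3 and Tnnt3, which define differentiated muscle, were not well above background in any channel. Myog, a regulator of muscle differentiation, was well above background only in RTOC on the E15.5 array and was not tested. Its log2 signals were 4.80 and 4.91 in 2D culture and 5.55 and 6.33 in RTOC. The summed signal of the whole list was 87096 and 42741 in 2D culture and 12275 and 5968 in RTOC (E14.5, then E15.5). Of 3 brown fat markers, a tissue that also uses the muscle forms, Ucp1, the defining one, was not well above background in any channel. Cidea was measured in RTOC on both arrays and in 2D culture on 1, with ratios of -0.74 and 1.39, and Prdm16 was measured in every channel, with ratios of -1.75 and -0.51. Neither passed the test (limma adjusted p = 0.664 and 0.0686), and the summed signal of the list was 1172 and 361.5 in 2D culture and 428.8 and 360.3 in RTOC. The part of these cells in the isoform values was not tested.

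Complex V, the ATP synthase, leaned to RTOC by the mean in nearly all of its genes, though by small amounts. Of its 16 genes, Atp5s among them, 14 had a mean above 0, as did 11761 of all 23685 probes tested. On both arrays 10 were above 0 (62.5%, against 39.6% of all probes tested). The median log2 ratio was 0.44, and 1 gene was called higher (6.25%, against 15.3% of all probes) and 0 lower. Atp5c1, the gamma subunit that turns inside the catalytic head, had log2 signals of 15.74 and 15.58 in 2D culture and of 16.67 and 16.43 in RTOC. Its ratios of 0.93 and 0.84 were close to each other, and the mean of 0.89 ± 0.06 (SD, n = 2 arrays; SE 0.25, limma adjusted p = 0.0491) is 1.85-fold.

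Atp5c1 was the only subunit of the catalytic head past the threshold, and its difference from the others was not tested. Atp5b, the catalytic beta subunit, had log2 signals of 16.74 and 16.26 in 2D culture and of 16.14 and 16.29 in RTOC, a mean log2 ratio of -0.28 (SE 0.29, limma adjusted p = 0.486), which turned to 0.09 with normexp and loess and to 0.50 with normexp and median centring. Its other probes gave means of -0.50 and -0.69 and were below 0 on both arrays. Atp5a1, the alpha subunit, had ratios of -0.13 and 0.48 and a mean of 0.18, while its second probe gave 0.60 and 0.89 with a mean of 0.74 (limma adjusted p = 0.0825). Atp5d, the delta subunit, had -0.11, which turned to 0.01 with normexp and median centring and to 0.02 with median centring of the processed signals. Atp5e, the epsilon subunit, was above 0 on both arrays with a mean of 0.44, and was called higher with normexp and median centring.

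The membrane part and the side stalk, through which protons flow and which hold the head in place, had 10 genes, and all 10 had a mean above 0. Their median was 0.45, and 0 passed the test. On both arrays 7 of them were above 0 (70%, against 39.6% of all probes tested). The highest were Atp5l, with a mean of 1.003 (SE 0.31, limma adjusted p = 0.0622), Atp5j2, with 0.86 (limma adjusted p = 0.0762), and Atp5j, with 0.84 (limma adjusted p = 0.0743). Atp5o, the oligomycin sensitivity protein that joins the stalk to the head, had 0.02. The c ring is built from the products of Atp5g1, Atp5g2 and Atp5g3, which share a mature protein, and these genes had means of 0.03, 0.67 and 0.09.

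The arrays did not give equal ratios. The ratio was higher on the E14.5 than on the E15.5 array for 58 of the 80 members (72.5%), against 49.8% of all probes tested, most of which are dimmer than the members. In complex I this held for 28 of 35 genes, and its median was 0.67 on the E14.5 and 0.22 on the E15.5 array. In complex V the medians were 0.51 and 0.41, and in complex III 0.21 and 0.12. With 1 array for each stage, whether the stages differ could not be tested.

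**Figure D3:**
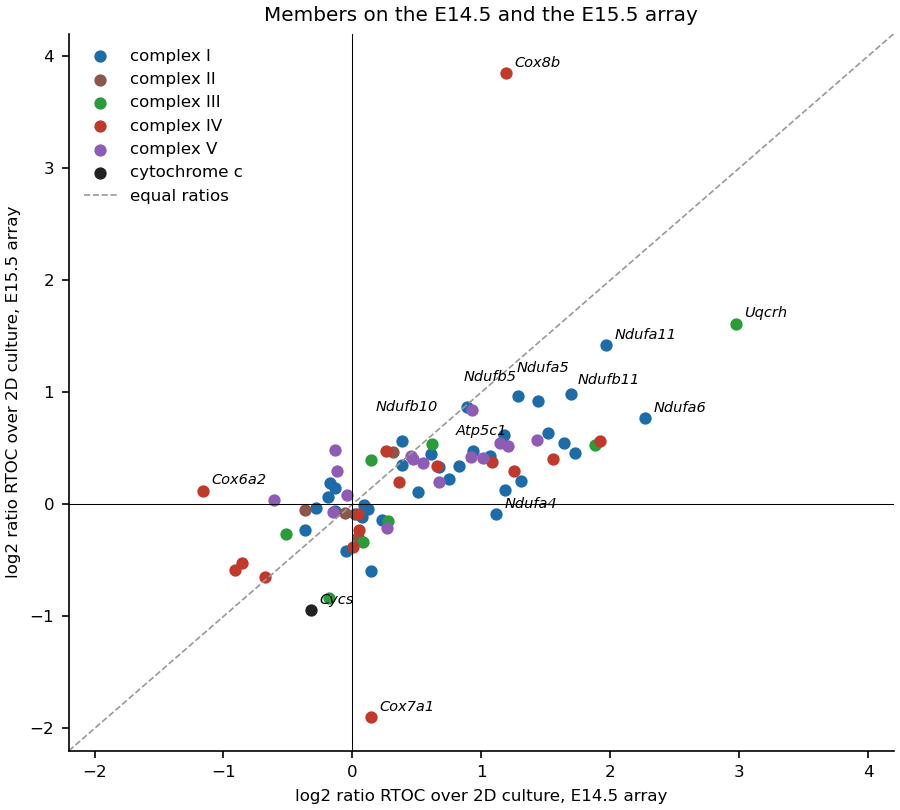
Log2 ratio of RTOC over 2D culture on the E14.5 array (horizontal axis) against that on the E15.5 array (vertical axis) for the 80 members tested, coloured by complex, with the dashed line marking equal ratios. Most points with a high ratio lie below the line, that is higher on the E14.5 array, while Cox8b, whose 2D signals were not well above background, lies above it and Cox7a1 far below 0 on the vertical axis (-1.90).

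Other lists of energy metabolism were counted in the same way, beside 15.3% of all probes called higher and 13.6% called lower. In glycolysis, which breaks glucose down to pyruvate outside mitochondria, 12 of 18 genes tested fell in RTOC and 1 rose, with a median log2 ratio of -1.11. Eno1 had the lowest mean, -2.61 (SE 0.25, limma adjusted p = 0.003), and Ldhb, the lactate dehydrogenase form of oxidative tissues, rose by 1.62 (limma adjusted p = 0.011). Ldha, the form of glycolytic tissues, had log2 signals of 17.01 and 17.09 in 2D culture and of 15.13 and 16.02 in RTOC, a mean of -1.47 (limma adjusted p = 0.021). The members of the respiratory chain and glycolysis thus had medians of opposite sign.

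At the entry of pyruvate into mitochondria 3 of 12 genes rose and 2 fell, with a median of 0.13. Pdk1, a kinase that shuts pyruvate dehydrogenase, had the highest mean, 2.15 (limma adjusted p = 0.049), and Pdk4, another such kinase, the lowest, -1.95 (limma adjusted p = 0.028). In the Krebs cycle 0 of 14 rose and 1 fell, with a median of -0.07 that turned to 0.26 with normexp and median centring and to 0.03 with median centring of the processed signals. The gene that fell was Idh3a, a subunit of isocitrate dehydrogenase, at -1.22 (limma adjusted p = 0.035), and the highest mean was that of Suclg2, 0.86 (limma adjusted p = 0.053).

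Of 45 assembly factors of the complexes tested, 2 rose and 2 fell, with a median of 0.25. Sdhaf4, which helps to mature the succinate dehydrogenase, had the highest mean, 1.58 (limma adjusted p = 0.068), and Ttc19, an assembly factor of complex III, fell by 1.99 (limma adjusted p = 0.005). Among 18 regulators of mitochondrial biogenesis 2 rose and 2 fell, with a median of 0.04. Polg2, the accessory subunit of the mitochondrial DNA polymerase, rose by 1.68 (limma adjusted p = 0.008), and Pprc1, a coactivator, fell by 1.11 (limma adjusted p = 0.043).

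Among 9 inner membrane carriers and porins tested 2 rose and 0 fell, with a median of 0.00. Atpif1, the protein that inhibits ATP synthase when it runs in reverse, rose by 1.55 (limma adjusted p = 0.037), and the mitochondrial creatine kinase Ckmt1 had the lowest mean, -0.53 (limma adjusted p = 0.274). Of 48 proteins of the large mitochondrial ribosome subunit 1 rose and 1 fell, with a median of 0.03; Mrpl48 was the highest at 1.38 (limma adjusted p = 0.015) and Mrpl37 the lowest at -1.07 (limma adjusted p = 0.031). Of 10 genes of mitochondrial antioxidant defence none was called, 1 had an unadjusted p under 0.05, and the median was -0.11, which turned to 0.09 with normexp and median centring. Sod2 had 0.33 (limma adjusted p = 0.404) and Gpx1 -0.92 (limma adjusted p = 0.052).

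**Figure D4:**
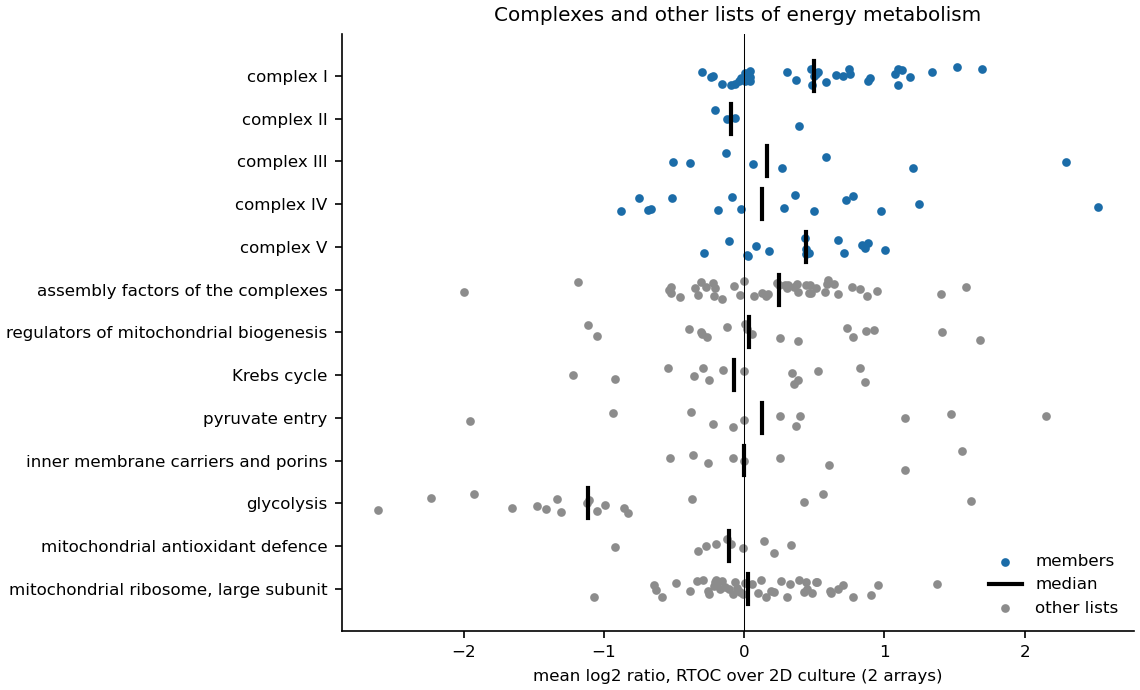
Mean log2 ratio of RTOC over 2D culture over 2 arrays (horizontal axis) for each gene of complexes I to V (blue) and of the other lists (grey), with the median of each list as a black bar. The medians of complex I (0.50) and complex V (0.44) are the highest, and that of glycolysis (-1.11) is the lowest of those drawn.

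The cultures also differed in markers of the cells they held, and the part of this in the members' ratios was not tested. Beside these counts, 15.3% of all probes tested were called higher and 13.6% lower. Of 6 thymic epithelial markers 3 rose, Psmb11, Krt5 and Foxn1, and Krt14 fell; their summed signal was 174524 and 427434 in 2D culture and 473906 and 557473 in RTOC (E14.5 array first). Of 6 fibroblast markers 3 rose and 3 fell, with summed signals of 398955 and 293359 in 2D culture and 224688 and 244743 in RTOC. Of 4 smooth muscle markers 3 fell, with summed signals of 561746 and 492567 in 2D culture and 60920 and 37256 in RTOC. Endothelial markers rose for 2 of 3 genes. Cdh5 and Pecam1 were not measured above background in 2D culture and entered the test only through RTOC, so the size of their ratios is uncertain. Of 4 haematopoietic markers tested 2 rose, Adgre1 and Ptprc, with summed signals of 7656 and 6386 in 2D culture and 40221 and 44363 in RTOC. The T-cell gene Cd3e did not differ beyond its error (-0.08, limma adjusted p = 0.841), and Rag1 was well above background only in RTOC on a single array.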

How the data were processed

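RNA of RTOC and 2D culture was hybridized together on 2 Agilent arrays, with Cy3 for 2D culture and Cy5 for RTOC. The authors ran Feature Extraction (version 11.5.1.1 in the submitters' processing notes, 9.1.3.1 per the file headers) and the deposited files hold a processed signal for each spot, an intensity corrected within the array for background and dye. The deposited series values are the log10 ratio of the same signals, and served as an alternative only. The methods name quantile normalization and no test for the arrays. The extraction of RNA is given as TRIzol in the labels and as a column kit in the methods.

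After removal of control spots and outlier spots (5 on the E14.5 and 1 on the E15.5 array), signals of the 4 channels were brought to a common distribution by quantile normalization. Log2 ratios (Cy5 over Cy3) of a probe's spots were averaged. Among 41174 probes, 22944 were named through an accession, 6664 through a symbol and 3108 through an older symbol of GRCm38.p6, and 8458 kept the name in the files. Of the 112 member probes 100, 10 and 2 were matched in these ways. Probes with at least 1 channel well above background (in at least 0.5 of their spots) on each array were tested, 23685 in all. The test of each log2 ratio against 0 used limma 3.58.1 in R 4.3.3 (intercept fit by lmFit, then eBayes; two-sided; Benjamini-Hochberg; threshold 0.05). With 1 residual degree of freedom, p-values lean on the spread shared over all probes (4.51 prior degrees of freedom). The precision is limited by the 2 arrays. The limma step was run on simulated ratios drawn from the fitted spread, with no dye or stage effect, so that run cannot speak to those effects. A gene is given by its brightest probe.

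Members and lists were chosen with earlier results of these data known. Named were the 3 highest and the 3 lowest genes of complexes I, III, IV and V, complex II, Cyc1, Cycs, the core subunits of complex I, the isoforms of complex IV with their general forms, and the highest and lowest gene of each list; other genes were chosen after their values were seen. Of the members, 1 that this rule names is counted but not reported here. Alternatives were normexp correction (offset 50) with loess, loess and Aquantile, or median centring, signals or series values as deposited or median centred, no filter or both channels measured, inclusion of outlier spots, omission of either array, the 4 channels with no replicate block, trend and robust eBayes, a one-sample test of the ratios, 1.5-fold on both arrays, and all probes of a gene. The Nrf1 core searched in promoters was shortened after a longer form of it had been counted. A comparison of isoform proteins was not run.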

Additional observations from a re-analysis of the deposited data

Results flagged for a closer look

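The ratios of 3 members had opposite signs on the 2 arrays and lay at least 2-fold apart. Since each stage has a single array, these differences were not tested. For Cox7a1 the log2 ratio on the E15.5 array minus that on the E14.5 array was -2.04, and the signal of 2D culture on the E15.5 array was the one that stood apart. For Cox6a2 the difference was 1.28, at log2 signals from 6.38 to 7.54. For Ndufa4 it was -1.20, at log2 signals from 14.61 to 15.72. Both genes were well above background in every channel.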

How the results depend on the processing

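The calls rest on 2 arrays, and their number moved with the settings more than the direction did. In place of 9 members called higher there were 20 with normexp and median centring, 19 with median centring of the processed signals, 14 where both channels had to be measured, 4 with trend and robust eBayes and 3 with no replicate block, in which the 4 channels were fitted as 2 against 2 single values (Ndufa11, Ndufb11 and Uqcrh). There were 0 without the filter on dim probes and by the one-sample test of the ratios after adjustment, where 0 of all probes were called in either; 17 and 7 members had an unadjusted p under 0.05. Members called lower were 0 but for 1 by the one-sample test unadjusted and 2 at 1.5-fold on both arrays. Median centring moved the median of all probes to 0.12 with normexp and 0.15 with processed signals. Of the 43 named members 16 changed sign under the settings run, and 0 of them were among the 9 called. Medians were read against the SD of the same median between the arrays. With normexp and median centring the median log2 ratio was 0.60 over all members, 0.082 in complex II, 0.40 in complex III, 0.41 in complex IV, 0.80 in complex V, 0.26 in the Krebs cycle, 0.29 in pyruvate entry, 0.34 in carriers, -0.80 in glycolysis, 0.094 in antioxidant genes and 0.23 in the ribosome. With processed signals median centred it was 0.51 over all members, 0.015 in complex II, 0.25 in complex III, 0.22 in complex IV, 0.57 in complex V, 0.030 in the Krebs cycle, 0.29 in pyruvate entry, 0.23 in carriers, -0.011 in antioxidant genes and 0.17 in the ribosome. With processed signals as deposited it was 0.10 in complex III and 0.068 in complex IV, the same from the series values, and -0.12 in the Krebs cycle, 0.079 in carriers and -0.16 in antioxidant genes. With normexp and loess, with or without Aquantile, it was -0.042 in the Krebs cycle and -0.17 in antioxidant genes. Where both channels had to be measured it was -0.023 in complex IV. Over all probes of a gene it was 0.20 in complex IV, -0.14 for Cycs, -0.12 in the Krebs cycle and -0.18 in antioxidant genes. With each array left out, the median ranged from 0.26 to 0.39 over all members, from 0.22 to 0.67 in complex I, from -0.064 to -0.0046 in complex II, from 0.16 to 0.20 in complex IV, from -0.050 to 0.22 in regulators of biogenesis, from 0.013 to 0.30 in assembly factors, from -0.066 to -0.039 in the Krebs cycle, from 0.17 to 0.23 in pyruvate entry, from -0.11 to -0.092 in antioxidant genes and from -0.0016 to 0.13 in the ribosome. Calls in the other lists were few and moved likewise: 0 to 4 assembly factors, 0 to 5 regulators, 0 to 2 Krebs cycle genes, 0 to 3 pyruvate genes, 0 to 2 carriers and 0 to 3 ribosome genes were called higher, and at most 2 of any of these lists lower. In glycolysis 12 genes called lower became 5 with normexp and median centring, 3 with no replicate block and 0 without the filter or by the one-sample test. Of antioxidant genes 1 was called lower under 5 settings. The causes were not tested.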
